A study of Mus musculus with 10 samples.

Results

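The translation initiation factors were taken as all genes whose symbol begins with Eif and a digit from 1 to 6, without the eIF2 kinases (Eif2ak), Eif2s3x, Eif2s3y and pseudogenes. This gave 50 genes of the 38803 symbols in the data, and 10 symbols with the same beginning were left out. The genes were placed in their complexes: 5 for eIF1 and eIF1A, 4 for eIF2 and other carriers of the initiator tRNA, 5 for the exchange factor eIF2B, 14 for eIF3, 5 for the helicase eIF4A with eIF4B and eIF4H, 7 for eIF4E and eIF4G, 4 for proteins that bind eIF4E, and 5 for eIF5, eIF5A, eIF5B and eIF6. The symbol Eif2c5, annotated as a long non-coding RNA, met the rule on symbols and belongs to none of these.

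Total RNA was sequenced from the dorsal telencephalon, the part of the embryonic forebrain that forms the cerebral cortex, of mice at embryonic day 12 on a C57/Bl6 - 129 SvJ background. The 5 control libraries were Rnu11WT/Flx::Emx1-cre+/-, in which 1 copy of Rnu11 was floxed and the other wild type, and the 5 mutant libraries were Rnu11Flx/Flx::Emx1-Cre+/-, with both copies floxed. Rnu11 encodes the U11 small nuclear RNA of the minor spliceosome, which removes a rare class of introns, and the comparison asks which transcripts differ when both copies rather than 1 can be deleted. Both groups carried Emx1-Cre, so in the controls the 1 floxed copy was also open to deletion, and no library with intact Rnu11 was analysed here. Emx1-Cre acts in progenitors of the dorsal telencephalon and the cells they give rise to, and not in blood vessels, meninges or microglia, which a dissected tissue can also hold.

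Initiation factors bring the small ribosomal subunit, the initiator tRNA and the messenger RNA together at the start codon. eIF4E binds the cap, eIF4G bridges it to eIF4A, which unwinds the leader, and eIF3 is the large scaffold on the small subunit that holds the others in place, while eIF2 delivers the initiator tRNA and eIF2B recharges eIF2 with GTP. Eif3i encodes the WD-repeat subunit that forms a module of eIF3 with Eif3b and Eif3g.

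Levels are in FPKM (fragments of a gene per kilobase of its transcript, scaled by the fragments of the library), so levels of different genes are per length. Differences are mutant minus control on the log2(FPKM + 1) scale, with a standard error (SE) and a p-value by limma, adjusted by the Benjamini-Hochberg method over the 13522 genes that reached 1 FPKM in 5 or more libraries. A gene was called at an adjusted p under 0.05. Of the 50 genes, 47 were tested. Some differences also have an exact permutation p, two-sided, from every way of dividing the 10 libraries into 5 and 5. The smallest it can be is 0.00794, and it is not adjusted for the number of genes. Whether the libraries came from separate embryos is not stated in the labels, and all p-values measure the spread between these libraries. In bulk tissue, fewer cells of a type and less RNA per cell cannot be told apart.

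Rnu11 itself lay at 1913 to 2817 FPKM in the controls and at 472.8 to 1421 FPKM in the mutants, without overlap, a log2 difference of -1.50 (exact permutation p = 0.00794, limma adjusted p = 0.118). The log2 difference ranged from -1.70 to -1.31 when single libraries were left out, and of these fits the adjusted p by limma passed the threshold only without mutant 4, at 0.0494. Estimated depths were roughly 9730000 to 20800000 fragments per library, and 13092 to 14229 genes reached 1 FPKM. Control 5, mutant 4 and mutant 5 had more Rny1 than Rpph1, both short non-coding RNAs, and the other 7 libraries had less. These 3 libraries are called the second library set and the other 7 the first. The loss of Rnu11 was larger in the first set, with means of 2287 FPKM in controls and 565.4 FPKM in mutants (log2 difference -2.02). In the second set, control 5 had 2266 FPKM and mutants 4 and 5 a mean of 1383 FPKM (log2 difference -0.71). All 9 markers of dorsal telencephalon progenitors were at 1 FPKM or more in every library, against 1 of 8 markers of the ventral telencephalon. The summed ventral markers ran from 6.04 to 63.9 FPKM in controls and from 9.12 to 25.3 FPKM in mutants, and all 8 reached 1 FPKM in some library. Summed levels of 8 marker lists overlapped between the groups, with no marker called, among them red cells (3292 to 7950 FPKM in controls, 3950 to 8467 in mutants), meninges and pericytes (48.9 to 119.1 and 51.6 to 145.1), endothelial cells (24.4 to 41.1 and 30.4 to 50.3) and microglia and macrophages (17.3 to 41.4 and 25.4 to 85.1). No marker was at 0 in all libraries.

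Of the initiation factor genes, Eif3i fell in the mutants and none of the other 46 tested genes was called. It stood at 223.3, 206.7, 214.4, 216.2 and 183.3 FPKM in controls 1 to 5 and at 122.9, 128.5, 147.6, 141.4 and 134.6 FPKM in mutants 1 to 5. Every mutant library lay below every control library, with a gap between 147.6 and 183.3 FPKM. The mean went from 208.8 ± 15.4 FPKM (SD, n = 5) to 135.0 ± 9.86 FPKM (SD, n = 5), 64.7% of the control level, and the log2 difference was -0.63 (SE 0.10, limma adjusted p = 0.0376, exact permutation p = 0.00794). This is 1 call among 47 genes, 2.13%, against 0.155% of all tested genes called in either direction, 0.0887% called higher and 0.0666% called lower. The genes were chosen with earlier results of these data known, so these shares cannot show that calls are more frequent among them. Within the first library set, 4 controls had 215.2 ± 6.83 FPKM and 3 mutants 133.0 ± 12.9 FPKM, a log2 difference of -0.69 (limma adjusted p = 0.0261). In the second set, the single control had 183.3 FPKM and the 2 mutants a mean of 138.0 FPKM, and with library set as a term the log2 difference was -0.61 (limma adjusted p = 0.0106). The call is close to its threshold. Without the filter on low values the adjusted p by limma was 0.0795. Leaving out 1 library gave log2 differences of -0.67 to -0.59. The call was kept only without control 5, the single control of the second set (limma adjusted p = 0.0200). The adjusted p by limma was 0.156, 0.119, 0.106 and 0.0876 without controls 1, 2, 3 and 4 in turn, and 0.138, 0.159, 0.105, 0.0556 and 0.0930 without mutants 1 to 5.

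Eif3i (ENSMUSG00000028798.16) lies on chromosome 4 from 129591960 to 129600648 on the minus strand of GRCm38, with 11 exons in its longest coding transcript, and no annotated gene overlaps it. Of its 1074 runs of 50 bases, 0.838% occur in a transcript of another gene. Its level therefore shares few possible reads with near copies.

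**Figure D1:**
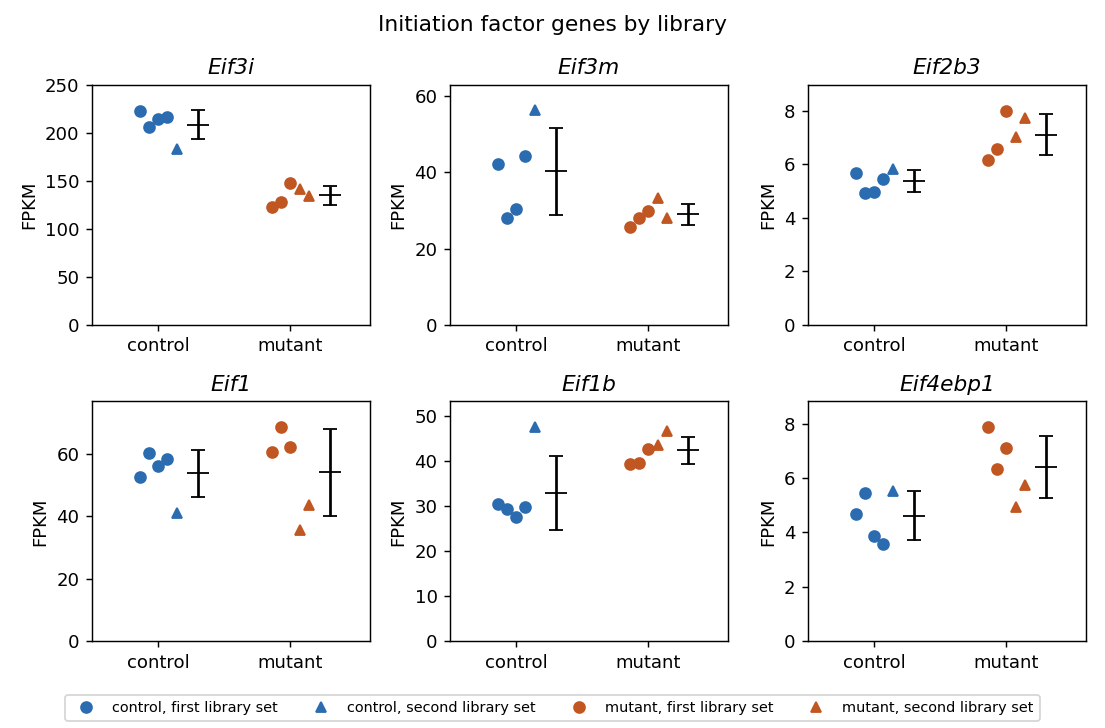
FPKM of 6 initiation factor genes in each library, with circles for the first library set, triangles for the second, and the mean ± SD of 5 libraries at the side of each group. The mutants of Eif3i lie between 122.9 and 147.6 FPKM and its controls between 183.3 and 223.3 FPKM, the groups of Eif2b3 do not overlap in the other direction, and the other 4 genes overlap.

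Eif3i was the eIF3 subunit with the second highest listed level in all 5 controls, below Eif3k. In the mutants it held the same rank in libraries 1 and 3 and the third rank in libraries 2, 4 and 5, below Eif3h as well. Eif3k encodes a small subunit of the complex and had 231.0 ± 19.8 FPKM in controls and 210.5 ± 15.6 FPKM in mutants (log2 difference -0.13, limma adjusted p = 0.732). Eif3h, a subunit with an MPN domain, had 132.4 ± 9.08 and 135.0 ± 10.3 FPKM (log2 difference 0.027). Eif3i was at 78.8 to 99.7% of Eif3k in the controls and at 60.8 to 71.2% in the mutants. Against Eif3h it was at 138.8 to 181.2% in the controls and 94.5 to 112.5% in the mutants, and 26.2% of the runs of 50 bases in Eif3h occur in other genes, so its level is uncertain. Against Eif3e, a subunit with a PCI domain, it was at 130.2 to 173.8% and 102.5 to 128.2%. Of the runs of 50 bases in Eif3e, 16.3% occur in the pseudogene Eif3s6-ps2, so this ratio and the ranks are uncertain too. None of these ratios within a library overlapped between the groups. The ratio of Eif3i to the median of the other subunits did overlap (175.3 to 426.7% in controls, 138.0 to 242.5% in mutants), with control 5 the lowest control. The median of the other subunits was 50.25 to 78.15 FPKM in the first library set and 95.14 to 104.6 FPKM in the second. Within the first set the ratio was 276.7 to 426.7% in controls and 178.4 to 242.5% in mutants. In the second it was 175.3% in control 5 and 138.0 and 141.5% in mutants 4 and 5.

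The other 13 eIF3 genes summed to 1000 ± 98.6 FPKM in the controls and 1001 ± 96.7 FPKM in the mutants (SD, n = 5 each). This sum followed library set, at 891.1 to 1009 FPKM in the first and 1062 to 1153 FPKM in the second. The second set holds control 5 and mutants 4 and 5, so the group means weigh the sets differently. The share of Eif3i in the summed eIF3 level was 18.1, 18.0, 19.4, 17.7 and 13.7% in controls 1 to 5 and 11.9, 11.9, 13.6, 11.0 and 11.3% in mutants 1 to 5. The groups did not overlap, but control 5 at 13.72% lay next to mutant 3 at 13.59%. The mean share was 17.4 ± 2.15% in controls and 11.9 ± 1.00% in mutants.

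**Figure D2:**
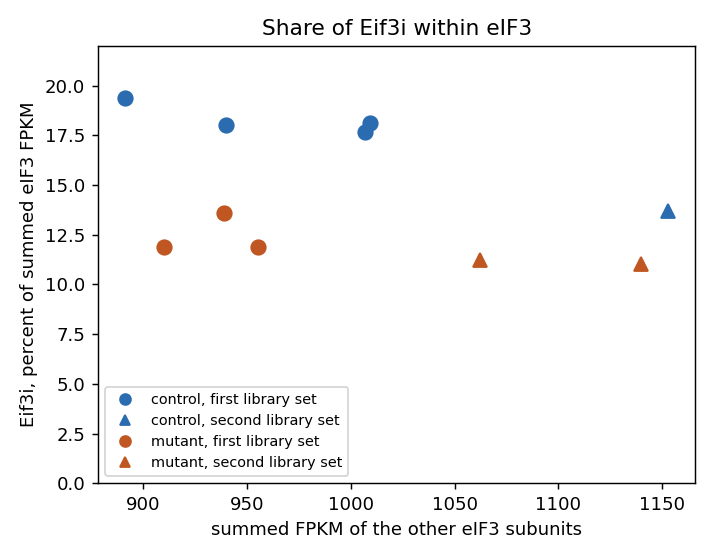
Share of Eif3i in the summed FPKM of the 14 eIF3 genes, in percent, against the summed FPKM of the other 13, with 1 point per library, colour for group and symbol for library set. The controls lie between 13.7 and 19.4% and the mutants between 11.0 and 13.6%.

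The median log2 difference of the other 13 eIF3 genes was 0.062, beside 0.11 over all tested genes. Of the 13, 8 lay above 0 and 5 below, and 4 lay above the median of all genes and 9 below. The sign of this median depended on scaling and on library set. A common median ratio for all libraries moved the median of all genes by -0.10 and quantile normalization by -0.11 on the log2 scale, and the median of the 13 became -0.060 and -0.019. Relative to all genes it was -0.044, -0.062 and -0.014 without rescaling, with the median ratio and with quantiles. With library set as a term the median of the 13 was -0.021, or -0.11 relative to all genes, and in the first set alone 0.035, or -0.13 relative to all genes. The difference of Eif3i relative to the median of all genes was -0.73, -0.75 and -0.69 without rescaling, with the median ratio and with quantiles, -0.71 with library set as a term and -0.86 in the first set.

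Eif3m, the subunit that binds Eif3f and Eif3h, had the next lowest difference after Eif3i. It stood at 42.3, 28.0, 30.5, 44.3 and 56.3 FPKM in controls 1 to 5 and at 25.6, 28.1, 30.0, 33.2 and 28.0 FPKM in mutants 1 to 5. The controls were spread more widely than the mutants and the groups overlapped. The log2 difference was -0.42 (SE 0.17, limma adjusted p = 0.520, exact permutation p = 0.0714). Of the runs of 50 bases in its transcript, 37.3% also occur in Gm7658, a gene listed at a mean of 219.0 FPKM in controls and 200.0 FPKM in mutants, so the level of Eif3m is uncertain.

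Eif3l, a subunit of the same module as Eif3k and Eif3e, had the highest difference of the complex. It was at 55.2, 47.1, 45.0, 53.3 and 63.6 FPKM in controls 1 to 5 and at 59.4, 61.2, 60.8, 67.1 and 65.4 FPKM in mutants 1 to 5. Control 5 lay among the mutants and the other 4 controls below them. The log2 difference was 0.25 (SE 0.11, limma adjusted p = 0.546, exact permutation p = 0.0317).

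Eif3a, the largest subunit and the scaffold of the core, had 73.6 ± 26.5 FPKM in controls and 79.2 ± 20.7 FPKM in mutants. Its spread followed library set, with 50.2 to 78.1 FPKM in the first and 100.5 to 117.4 FPKM in the second. Eif3c, which pairs with Eif3a, had 78.4 ± 16.4 and 88.6 ± 16.5 FPKM. Of the runs of 50 bases in Eif3c, 7.65% occur in Gm11224, listed at a mean of 17.7 FPKM. Eif3b, which anchors Eif3i and Eif3g, had 25.4 ± 2.97 and 26.8 ± 3.24 FPKM. Eif3g, the RNA-binding partner of Eif3i, had 91.9 ± 17.9 and 97.6 ± 20.9 FPKM. The 2 partners of Eif3i thus had log2 differences of 0.071 and 0.081, with limma adjusted p = 0.864 and 0.898. Both signs turned under the median ratio and quantile scalings.

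Eif3d, a subunit that can itself contact a cap, had 94.3 ± 11.0 FPKM in controls and 98.4 ± 10.7 FPKM in mutants. Of the runs of 50 bases in Eif3d, 18.4% occur in Gm17638 on the opposite strand, listed at a mean of 2.09 FPKM. Eif3e had 130.6 ± 10.3 and 123.2 ± 5.78 FPKM, and 16.3% of its runs of 50 bases occur in the pseudogene Eif3s6-ps2, which was listed at 556.7 and 620.0 FPKM. Eif3f had 25.2 ± 2.16 and 27.5 ± 3.35 FPKM. The loosely bound subunit eIF3j is encoded by Eif3j1, with 6.65 ± 2.23 and 6.41 ± 0.73 FPKM, and Eif3j2, with 17.4 ± 3.43 and 16.1 ± 2.44 FPKM. These 2 genes share 90.8% of the runs of Eif3j2, so their separate levels are uncertain.

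**Figure D3:**
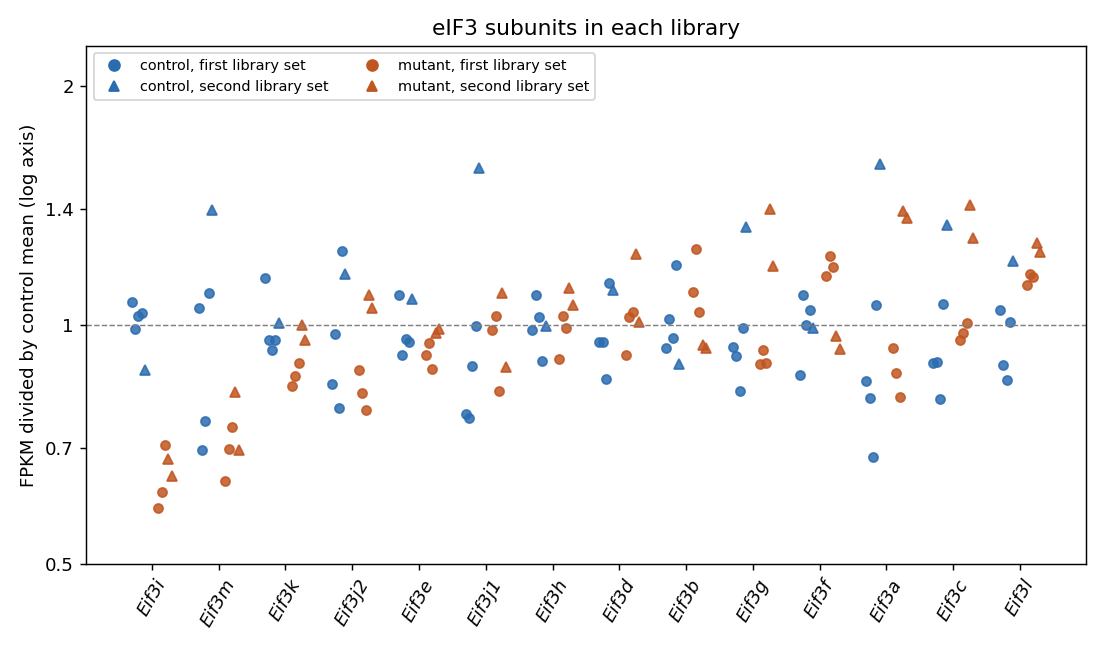
FPKM of each eIF3 gene in each library divided by the mean of the 5 controls of that gene, on a log axis, ordered from the lowest to the highest log2 difference. Eif3i is the single gene of the 14 whose groups do not overlap, and the second library set lies high in both groups for Eif3a, Eif3c and Eif3g.

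The group of eIF1 and eIF1A monitors the start codon while the small subunit scans. Its 5 tested genes had a median log2 difference of 0.16 and none was called. Eif1 and Eif1b encode near-identical forms of eIF1. Their coding sequences were compared base by base from the GENCODE transcripts of GRCm38, to show how far the 2 genes differ from each other. Both are 339 bases long without the stop codon, 64 bases differ (81.1% identity), and the longest run without a difference is 25 bases. Eif1 is on chromosome 11 from 100319885 to 100322096 and Eif1b on chromosome 9 from 120492232 to 120495330, both on the plus strand. The first 297 bases of each are shown, and capitals mark the 54 of them at which the genes differ.
Eif1: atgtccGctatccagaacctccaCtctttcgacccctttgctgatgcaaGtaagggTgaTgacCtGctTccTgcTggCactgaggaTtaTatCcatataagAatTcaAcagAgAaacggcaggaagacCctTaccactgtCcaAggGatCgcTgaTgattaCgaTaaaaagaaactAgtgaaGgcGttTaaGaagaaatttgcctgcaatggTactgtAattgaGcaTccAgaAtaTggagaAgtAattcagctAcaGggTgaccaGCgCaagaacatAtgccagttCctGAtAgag
Eif1b: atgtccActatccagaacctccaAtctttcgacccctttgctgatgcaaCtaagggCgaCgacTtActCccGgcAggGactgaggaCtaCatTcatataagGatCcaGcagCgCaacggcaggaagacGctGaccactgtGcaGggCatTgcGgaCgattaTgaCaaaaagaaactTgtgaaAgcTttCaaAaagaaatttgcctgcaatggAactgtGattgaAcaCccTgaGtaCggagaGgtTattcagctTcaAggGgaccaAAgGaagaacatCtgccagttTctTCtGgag

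Eif1b was at 30.5, 29.3, 27.7, 29.9 and 47.6 FPKM in controls 1 to 5 and at 39.3, 39.7, 42.7, 43.7 and 46.8 FPKM in mutants 1 to 5. Controls 1 to 4 lay below every mutant and control 5 above every mutant. The log2 difference was 0.38 (SE 0.14, limma adjusted p = 0.472, exact permutation p = 0.0476). Without control 5 it was 0.51 and passed the threshold (limma adjusted p = 0.0376). Control 5 is the only control of the second library set, so in that fit mutants 4 and 5 had no control of their set. Within the first library set the log2 difference was 0.45 (limma adjusted p = 0.0648). With library set as a term it was 0.31 (limma adjusted p = 0.238), and in the second set -0.073. Eif1 was at 52.7, 60.3, 56.1, 58.5 and 41.2 FPKM in controls 1 to 5 and at 60.6, 68.6, 62.3, 35.7 and 43.5 FPKM in mutants 1 to 5. Of the runs of 50 bases in the whole transcript of Eif1, 31.6% occur in transcripts of 18 other genes, 15.9% in Emd, against 0.811% for Eif1b, so the level of Eif1 is uncertain. The 3 lowest values of Eif1 were in the 3 libraries of the second set, where Eif1b had its 3 highest. The log2 difference of Eif1 was -0.018 (limma adjusted p = 0.983), 0.16 within the first set and 0.0998 with library set as a term. Of the 2 remaining named genes, Eif1a, a form of the scanning factor eIF1A, had 12.2 ± 3.19 FPKM in controls and 13.6 ± 2.22 in mutants, and Eif1ad, related to eIF1A by its domain, had 8.65 ± 1.79 and 10.2 ± 0.91 FPKM. Of the runs of 50 bases in Eif1ad, 15.1% occur in Banf1 on the opposite strand, so its level is uncertain.

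The eIF2 group had a median log2 difference of 0.021 over 4 genes, none called. Eif2s2, the beta subunit of eIF2, had 53.1 ± 12.1 FPKM in controls and 52.0 ± 10.9 in mutants, and 27.8% of its runs of 50 bases occur in Gm9892. Eif2s1, the alpha subunit whose phosphorylation slows initiation, had 18.0 ± 3.05 and 18.7 ± 1.42 FPKM. Eif2a, which can carry initiator tRNA apart from eIF2, had 18.2 ± 5.07 and 21.9 ± 2.46 FPKM (log2 difference 0.28, limma adjusted p = 0.623). Eif2d, which acts in reinitiation and ribosome recycling, had 9.50 ± 1.16 and 9.02 ± 1.17 FPKM.

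In eIF2B, the gamma subunit Eif2b3 had groups that did not overlap. It was at 5.66, 4.91, 4.98, 5.46 and 5.83 FPKM in controls 1 to 5 and at 6.17, 6.59, 8.01, 7.04 and 7.73 FPKM in mutants 1 to 5. All mutants were above all controls, in both library sets. The log2 difference was 0.35 (SE 0.10, exact permutation p = 0.00794), which did not pass the adjustment (limma adjusted p = 0.357). Eif2b3 was 1 of 47 tested initiation factor genes, 2.13%, that were higher in all mutants, beside 1.52% of all tested genes. Eif3i was the 1 that was lower in all mutants, beside 0.377% of all tested genes. The choice of genes with earlier results known limits these shares as well. The other eIF2B genes lay close to their controls. Eif2b1, the alpha subunit, had 26.4 ± 5.56 and 26.4 ± 1.56 FPKM. Eif2b4, the delta subunit, had 18.5 ± 3.05 and 19.5 ± 2.84 FPKM, and Eif2b5, the catalytic epsilon subunit, 18.8 ± 1.01 and 19.3 ± 1.96 FPKM. The median log2 difference of the 5 genes was 0.031.

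**Figure D4:**
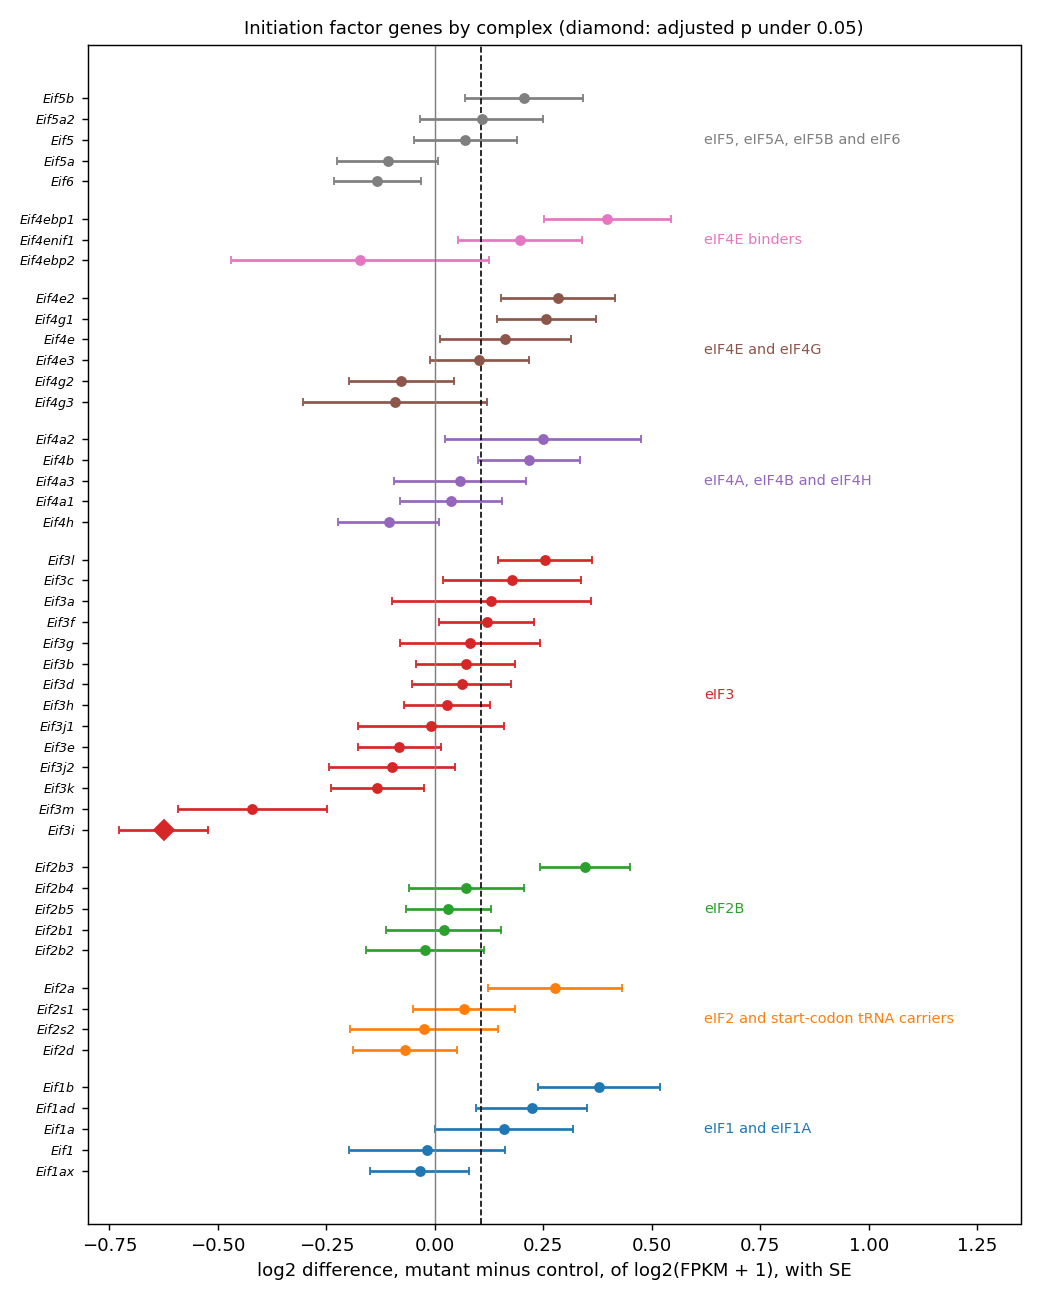
Log2 difference, mutant minus control, of each of the 47 tested genes by complex, with error bars for the standard error and lines at 0 and at the median of all tested genes (0.11). Eif3i at -0.63 is the lowest point and the single call.

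Among the cap-binding factors, Eif4g2 is a relative of eIF4G without the cap-binding contact. It had the highest listed level of all 50 genes in the controls, 690.9 ± 64.1 FPKM, and 654.4 ± 51.2 FPKM in mutants. Gm23262, which overlaps it on the same strand, was listed at a mean of 4317 FPKM, so the level of Eif4g2 is uncertain. Eif4g1, the main scaffold, was at 42.0, 45.1, 39.3, 55.4 and 53.6 FPKM in controls 1 to 5 and at 59.1, 55.0, 56.4, 58.9 and 50.8 FPKM in mutants 1 to 5. The groups overlapped through controls 4 and 5 and mutants 2 and 5. The log2 difference was 0.26 (limma adjusted p = 0.564, exact permutation p = 0.0476). The cap-binding protein Eif4e had 18.1 ± 4.66 and 20.0 ± 2.23 FPKM, and its relative Eif4e2 had 19.2 ± 3.62 and 23.4 ± 2.08 FPKM (log2 difference 0.28, limma adjusted p = 0.568). Of the runs of 50 bases in Eif4e, 6.8% occur in Gm7327, listed at a mean of 40.97 FPKM. The 6 tested genes had a median log2 difference of 0.13 and none was called.

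Proteins that bind eIF4E had a median of 0.20 over 3 tested genes. Eif4ebp1, the repressor that mTORC1 phosphorylates, was at 4.69, 5.45, 3.86, 3.56 and 5.53 FPKM in controls 1 to 5 and at 7.87, 6.34, 7.09, 4.94 and 5.73 FPKM in mutants 1 to 5. Mutant 4 lay below controls 2 and 5, and the other 4 mutants above every control. Its log2 difference, 0.40, was the highest of the 47 (SE 0.15, limma adjusted p = 0.463, exact permutation p = 0.0317). In the first library set it was 0.60, and in the second -0.047. Eif4ebp2 had 22.1 ± 8.34 and 19.6 ± 7.43 FPKM, and Eif4enif1, which carries eIF4E into the nucleus, 13.0 ± 2.94 and 14.8 ± 1.38 FPKM. Eif4ebp3 was below the filter, at 0 to 0.55 FPKM in controls and 0.37 to 1.28 FPKM in mutants, with overlap. Eif4e1b was listed at 0 in all 10 libraries, and Eif2c5 at 0.0377 FPKM in control 3 and 0 in the others.

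The helicase Eif4a1 had 666.1 ± 63.6 FPKM in controls and 681.4 ± 18.2 in mutants, and 64.9% of its runs of 50 bases occur in the pseudogene Eif4a-ps4, listed at 136.7 and 161.2 FPKM. Its paralog Eif4a2 had 85.2 ± 34.6 and 97.5 ± 20.0 FPKM, with 144.0 FPKM in control 5. Of the runs of 50 bases in Eif4a2, 26.2% occur in other genes, so its level is uncertain. The helicase cofactors Eif4b and Eif4h had 47.0 ± 7.16 and 54.4 ± 4.49 FPKM, and 172.3 ± 17.6 and 160.1 ± 18.0 FPKM. No gene of this group was called, and its median log2 difference was 0.058. Eif5a, which helps ribosomes through difficult peptide bonds, had 399.6 ± 39.1 and 370.1 ± 29.8 FPKM, the subunit-joining GTPase Eif5b 5.91 ± 1.33 and 6.88 ± 0.70 FPKM, and Eif6, which keeps large subunits from joining early, 56.7 ± 5.03 and 51.7 ± 4.74 FPKM. That group had a median of 0.070 and no call. Of the runs of 50 bases in Eif5b, 18.2% occur in Rev1 on the opposite strand, so its level is uncertain.

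**Figure D5:**
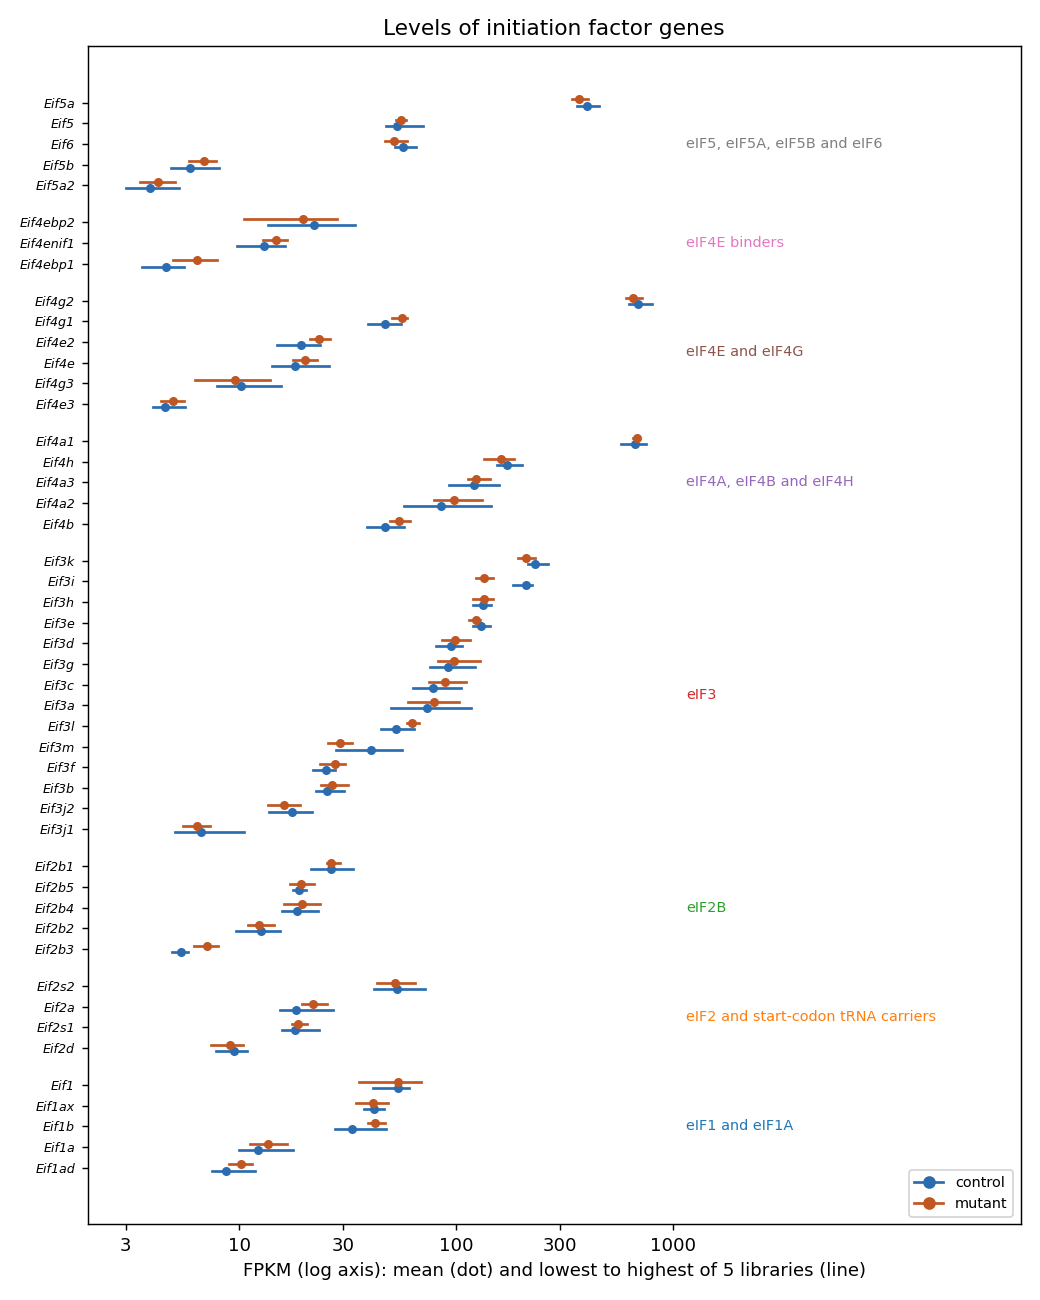
Mean FPKM (dot) and lowest to highest of 5 libraries (line) for the 47 tested genes on a log axis, controls and mutants by complex. Eif4g2, Eif4a1 and Eif5a have the highest listed levels, and the lines of Eif3i and of Eif2b3 do not overlap between the groups.

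All 50 genes summed to 3980 ± 329 FPKM in controls and 3899 ± 137 FPKM in mutants. The median log2 difference of the 47 tested genes was 0.067, with 30 above 0 and 17 below, and 18 above the median of all tested genes and 29 below. With the median ratio and quantile scalings, 18 lay above 0 and 29 below, while 50.4 and 48.5% of all tested genes in turn lay above 0. At an unadjusted limma p under 0.05 there were 7 of 47 genes, 14.9%, beside 8.76% of all tested genes. Eif1b, Eif2b3, Eif3l, Eif4ebp1 and Eif4g1 were higher, 5 of 47 or 10.6%, beside 7.69% of all tested genes, and Eif3i and Eif3m were lower, 2 of 47 or 4.26%, beside 1.07%. As the genes were chosen with earlier results known, these shares cannot show that differences are more frequent among them.

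Many of the genes differed by library set. In 14 of the 47 genes, 29.8%, all 3 libraries of the second set were above all 7 of the first, beside 15.5% of all tested genes. They were Eif1a, Eif1b, Eif2a, Eif2s1, Eif2s2, Eif3a, Eif3c, Eif3g, Eif3l, Eif4b, Eif4e, Eif5, Eif5a2 and Eif5b. Eif1 and Eif4ebp2 were lower in all 3, 4.26% of the 47 genes, beside 6.28% of all tested genes. The second set holds 1 control and 2 mutants. The exact permutation p takes no account of library set. With library set as a term, Eif3i remained the single initiation factor gene called, beside 0.547% of all tested genes.

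Pathways that act on initiation were read from lists of genes. Among 6 genes for eIF2 kinases and the phosphatase subunits that undo their work, none was called and the median log2 difference was 0.12. Eif2ak4, the kinase of the amino acid response, had 3.79 ± 0.77 and 4.39 ± 0.40 FPKM, and Ppp1r15a, the stress-induced phosphatase subunit, 5.79 ± 2.30 and 6.99 ± 1.13 FPKM. None of 12 genes of mTORC1 and MNK signalling to eIF4E was called, with a median of 0.17. All 12 lay above 0, beside 75.7% of all tested genes, and 8 exceeded the median of all genes. Under either scaling 8 lay above 0, beside 50.4% of all tested genes with the median ratio and 48.5% with quantiles. Akt1s1, an mTORC1 inhibitor subunit, had 11.3 ± 2.03 and 14.3 ± 2.32 FPKM, and Rps6kb2, an S6 kinase, 9.04 ± 2.13 and 11.6 ± 3.06 FPKM.

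None of 14 elongation and termination factors was called (median 0.066). Eef2, the translocase, was at 255.8 to 275.1 FPKM in the controls and 298.9 to 368.0 FPKM in the mutants, without overlap (log2 difference 0.26, limma adjusted p = 0.517, exact permutation p = 0.00794). Of all tested genes, 206 or 1.52% were likewise higher in all mutants than in any control. Eef2k, the kinase of Eef2, had 2.82 ± 0.65 and 3.72 ± 1.02 FPKM. None of 12 poly(A)-binding, helicase and reinitiation partners was called (median 0.18). The reinitiation factors Mcts2, at 10.9 ± 2.31 and 15.2 ± 1.76 FPKM, and Mcts1, at 15.3 ± 1.75 and 12.9 ± 1.74 FPKM, differed in opposite directions (log2 differences 0.46 and -0.23, limma adjusted p = 0.355 and 0.594). Without control 5, Mcts2 passed the threshold, at 0.57 (limma adjusted p = 0.0497).

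Promoters of 38 of the genes were found in RefSeq (GRCm38.p6), as windows of 300 bases around the start of transcription. A gene was counted when any of its windows held the motif. The E-box CACGTG, a palindrome and so the same on both strands, occurred in 10 of the 38, 26.3%. Of 8950 tested genes with a window, 11.8% held it. Counted by single window and not by gene, the E-box was in 7.15% of all 32851 windows. For CCAAT on either strand the share of genes was 34.2% against 43.8% of the tested genes, and for GGGCGG on either strand 76.3% against 70.9%. Among eIF3 genes, 3 of 10 held the E-box, and these sites are shown because they carry the motif in the same complex as Eif3i, whose own window is not in the table. The E-box is in capitals, each run is 30 bases on the strand of the gene, and the sites are at chr7:28981915-28981944 (minus strand), chr7:108934335-108934364 (plus strand) and chr19:60790654-60790683 (minus strand).
Eif3k: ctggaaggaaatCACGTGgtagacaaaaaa
Eif3f: caagatatgattCACGTGgtataaatttag
Eif3a: ccgcgagggaatCACGTGgttccttccttt
The sites of Eif3k and Eif3f begin 44 and 68 bases before the start and that of Eif3a 23 bases after it. A match is a description of the letters and says nothing of binding. The 3 genes had log2 differences of -0.13, 0.12 and 0.13, and none was called.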

How the data were processed

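Ribo-depleted stranded libraries (Illumina TruSeq Stranded Total RNA, per the labels' protocols) were aligned with HISAT2 to GRCm38 (mm10), per the submitters' processing notes. The authors deposited 10 lists of FPKM values per gene symbol. The sources used here do not name the program or annotation behind these values or say whether strand was used, so genes that overlap another on the opposite strand are uncertain. Among them are Eif1ad (Banf1, mean 73.5 FPKM), Eif2a (Serp1, 90.9) and Eif4enif1 (Drg1, 90.6). Others are Eif4a2 (Rfc4, 62.5), Eif5b (Rev1, 20.3) and Eif2b4 (Snx17, 20.2). Genes on the same strand also overlap some members. The highest of these had means of 14881 FPKM for Eif4a1, 4317 FPKM for Eif4g2 and 98.3 FPKM for Eif4a2. How their reads were assigned is not stated, so these levels are uncertain too. Depth was estimated from the step of 1 fragment in single-transcript genes and is rough; 1 fragment in 2000 bases is worth 0.0241 to 0.0514 FPKM. The test was limma 3.58.1 on log2(FPKM + 1) (R 4.3.3, trend and robust moderation, genotype as the single term). The pseudocount understates the change of low genes. The fit was tested on simulated data. Library set was defined by whether Rny1 exceeded Rpph1.

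The genes and lists were chosen with earlier results of these data known. Named in full were Rnu11, every called gene, every gene whose groups do not overlap, every eIF3 gene, and in each other complex the gene with the highest mean and the 3 with the smallest p. In each pathway list the 2 with the smallest p were named. Genes below the filter were named with their range. Coordinates and transcripts are from GENCODE M21 and promoters from RefSeq. Shared runs of 50 bases were counted for the initiation factor genes alone, against the annotated transcripts of all other genes. Alternatives were another pseudocount, no filter and a filter of 5 FPKM, 2 scalings, limma without trend and robust moderation, a replicate block, library set as a term, the first set alone and leaving out each library. Tables and plots used Python 3.11.15, pandas 2.3.3 and matplotlib 3.10.9.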

Additional observations from a re-analysis of the deposited data

Results flagged for a closer look

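The values of 9 groups stood apart by Dixon's criterion of a gap over 0.710 of the range among 5 libraries, of 82 groups screened. Chance flags about 1 in 20 groups. Control 5, a library of the second set, was the highest control in 7 of them. It had 17.8 FPKM of Eif1a against 9.95 to 11.9 in the other controls, 11.8 of Eif1ad against 7.50 to 8.10, 47.6 of Eif1b against 27.7 to 30.5, 27.2 of Eif2a against 15.4 to 17.4, 23.3 of Eif2s1 against 15.7 to 17.5, 10.5 of Eif3j1 against 5.08 to 6.64, and 144.0 of Eif4a2 against 57.2 to 82.2. Mutant 4 had 29.1 FPKM of Eif2b1 against 25.3 to 26.3 in the other mutants. Control 4 had 65.5 FPKM of Eif6 against 52.5 to 55.5 in the other controls.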

How the results depend on the processing

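Precision is limited by 5 libraries per group of unknown exact depth. The 21 genes called over all tested genes (12 higher, 9 lower) became 2 without a filter, 11 by limma without trend and robust moderation, 35 with quantile normalization, 74 with library set as a term and 101 in the first set, and 2 to 79 without single libraries; the median ratio scaling called 11 higher and 19 lower and quantile normalization 13 and 22. Initiation factor genes called were 0 without a filter, 0 with the replicate block and 0 to 2 without single libraries. The log2 difference of Eif3i was -0.63 (limma adjusted p = 0.0795) without a filter and -0.63 (limma adjusted p = 0.0859) with the replicate block, and -0.67 to -0.59 without single libraries, passing only without control 5. It passed under the other 7 alternatives. Rnu11 passed with quantile normalization (-1.54, limma adjusted p = 0.0435), with library set as a term (-1.65, 0.00853) and in the first set (-2.02, 0.00185), and lay at -1.70 to -1.31 without single libraries. The cause was not tested.

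Same-numbered libraries correlated at 0.0773, 0.155, 0.236, -0.107 and 0.521 in their deviations from the group means, and not every control matched its own number best, so the replicate block, under which 14 genes passed, rests on a shared number alone. The median of the other eIF3 genes was -0.01 to 0.10 without single libraries.

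Beside Eif3i and Rnu11, single values were recomputed for 39 named initiation factor genes and 8 pathway genes. Of these 47, 32 kept their direction under every alternative. Under any alternative 2 passed the threshold, Eif1b and Mcts2, both without control 5, the only control of the second set. With the median ratio and quantile scalings in turn, log2 differences turned to -0.0982 and -0.0728 for Eif2b1, -0.0444 and -0.0201 for Eif2b4, -0.0866 and -0.0664 for Eif2b5, -0.0502 and -0.0303 for Eif2s1, -0.0483 and -0.0189 for Eif3b, -0.0603 and -0.0127 for Eif3d, -0.041 and -0.0054 for Eif3g, -0.0955 and -0.036 for Eif3h and -0.086 and -0.0807 for Eif4a1. Eif3f turned to -2e-04 with the median ratio. With library set as a term, Eif1 turned to 0.0998, Eif2b1 turned to -0.019, Eif3a turned to -0.021 and Eif3g turned to -0.0224. In the first set, Eif1 turned to 0.1627, Eif3g turned to -0.0142, Eif3h turned to -0.0357, Eif3j1 turned to 0.1264 and Eif4ebp2 turned to 0.0469. Without single libraries, values ran from -0.1121 to 0.1185 for Eif1, -0.0477 to 0.1081 for Eif2b1, -0.0157 to 0.0703 for Eif2b5, -0.1073 to 0.0885 for Eif2s2, -0.0244 to 0.1885 for Eif3g, -0.009 to 0.0686 for Eif3h, -0.0807 to 0.1485 for Eif3j1, -0.0131 to 0.0826 for Eif4a1 and -0.3214 to 0.0172 for Eif4ebp2.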
